A study of Drosophila melanogaster with 8 samples.

Results

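Digestive zinc carboxypeptidases of the M14 family are described here in whole guts of adult female Drosophila melanogaster: 10 genes of the 17559 in the deposited table, chosen by a list of symbols. The list is built around CG12374, taken for its level as the most abundant transcript encoded in the nucleus, so that level is a description and not a result. Of the 10 symbols, 9 were matched to FlyBase identifiers through the authors' deposited table, and CG3108, which has no row there, through the current name table. The annotation classes all 10 as protein coding.

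RNA was taken from dissociated guts in 2 groups of 4 libraries, biological repeats by the series' design text. Control guts carried GFP under UAS and are labelled wild type, and LamDm0 guts expressed UAS-LamDm0, the B-type lamin of the fly, in enterocytes. Both groups were kept at 18 °C, and females aged 2 to 4 days were then moved to 29 °C for 2 days. The sources used here do not give the driver that directs the transgenes to enterocytes, the number of guts per library or the dates of preparation. Lam itself stood at 18.3 ± 1.62 CPM in the control group and at 3608 ± 957 CPM in the LamDm0 group (SD, n = 4 per group), so each library matched its label. CPM are counts per 1000000 counts, scaled between libraries with TMM factors, which assume that most genes keep their level.

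Metallocarboxypeptidases hold a zinc ion in the active site and remove amino acids from the carboxyl end of peptides. In the midgut they act on peptides that trypsins and other serine endopeptidases have released by cutting inside dietary proteins, and aminopeptidases of the brush border and peptide transporters take the products further. Digestive members of the family are typically made as inactive precursors with an amino-terminal pro-segment. The 10 genes here are known by their annotation numbers, and no more specific substrate is assigned to any of them below.

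Libraries held 19720070 to 36022790 counts, and mitochondrially encoded genes took 5.553% to 15.2% of them in control and 8.526% to 21.85% in LamDm0 libraries. Control replicates 1 and 2 and LamDm0 replicates 3 and 4 were the closest pairs within their groups, with a mean chi-square per gene of 30.8 and 52, against 96.4 to 439 for the other pairs, where sampling alone gives about 1. No pair was within sampling noise, but that cannot show that the libraries of a pair are independent samples. Each library was counted as a sample because the series' design text calls them biological repeats. Levels of the defining enterocyte markers were 319 ± 7.49 against 317 ± 40.6 CPM for the myosin gene Myo31DF, and 176 ± 29.1 against 149 ± 46.7 CPM for the transcription factor gene nub, control first. Of all 6 genes listed for enterocytes, 1 was called, the alkaline phosphatase gene Alp4, which is not among the defining markers. It fell from 76.7 ± 29.0 to 28.2 ± 10.4 CPM (log2 fold change -1.44 ± 0.34, adjusted p = 0.0367). The log2 fold changes of the other 5 ran from -0.24 for nub to 0.71 for pdm2, and the part of enterocyte number or state in the differences below was not tested. Among 4 fat body genes (Yp1, Yp2, Yp3 and Lsp2), of which 3 passed the filter, 0 were called by edgeR or DESeq2 and 0 had an unadjusted edgeR p under 0.05, but their summed level ran from 15.3 to 744 CPM in control and from 801 to 1745 CPM in LamDm0 libraries. Lsp2 had 0 counts in every control library and in LamDm0 replicate 4. It had 0.119, 0.0476 and 6.95 CPM in LamDm0 replicates 1 to 3, so its level rested on replicate 3. The part of fat body RNA in the differences below was not tested. Of 3 Malpighian tubule genes listed, 2 passed the filter and 0 were called by edgeR or DESeq2. The tubule gene Uro ran from 0.0986 to 58.4 CPM in control and from 0.0795 to 34.7 CPM in LamDm0 libraries. The part of tubule RNA, also in the fall of Alp4, was not tested. In whole guts, fewer cells of a type and less RNA per cell cannot be told apart.

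The genes lie on 4 chromosome arms. CG12374 (FBgn0033774) is on 2R from 12762113 to 12763825, CG17633 (FBgn0032144) on 2L from 9769060 to 9770409 and CG18585 (FBgn0031929) on 2L from 7689311 to 7691061, in the Ensembl annotation of BDGP6.54. A row of 5 members occupies 13440 bases of 3L from 7390742 to 7404181, in the order CG8563, CG32379, CG8562, CG18417 and CG8560. The gaps between them are 341, 76, 157 and 660 bases, and CG8560 alone is on the reverse strand. No other annotated gene lies within that row, and the next gene to its left is CG8564, another M14 carboxypeptidase gene. CG3097 and CG3108 are on X, with the M14 gene CG42264 between them. All 3 lie on the reverse strand inside the span of CG42699, which is on the forward strand and shares no exon base with CG3097 or CG3108. Exons of CG18585 share 149 bases and those of CG17633 share 11 bases with genes of the opposite strand. The strand setting of the counting is not stated, so reads in those bases cannot be assigned with certainty.

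CG12374 stood far above the other members. It had 59182, 53885, 46558 and 57163 CPM in control replicates 1 to 4, and 31399, 62212, 20823 and 17201 CPM in LamDm0 replicates 1 to 4. The control libraries lay close together, whereas LamDm0 replicate 2 was above every control and the other 3 LamDm0 libraries were below every control, so the groups overlapped. The coefficient of variation was 10.2% in control and 62.1% in LamDm0 guts. By counts, CG12374 ranked 1 among genes of the nuclear genome in each of the 8 libraries, and its share of all counts was 5.12% ± 0.78 in control libraries and 3.33% ± 1.65 in LamDm0 libraries (SD, n = 4). Per kilobase of exon it ranked 1 in 6 libraries and 3 in LamDm0 replicates 3 and 4. Its level per kilobase was 1.14 to 1.58 times that of Jon65Aiv, a serine protease gene, in control libraries. In LamDm0 replicates 1 to 4 that ratio was 1.34, 1.49, 0.885 and 0.799.

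The difference in CG12374 between the groups did not pass the test. Mean levels were 54197 ± 5541 CPM (control) and 32909 ± 20443 CPM (LamDm0), a log2 fold change of -0.72 ± 0.41 (SE; edgeR quasi-likelihood, p adjusted over 8794 genes by Benjamini-Hochberg = 0.336). The value depended on which LamDm0 libraries were used. Without LamDm0 replicate 2 it was -1.23 (adjusted p = 0.048), without LamDm0 replicates 1 and 2 it was -1.51 (adjusted p = 0.0175), and without LamDm0 replicates 3 and 4 it was -0.21 (adjusted p = 0.741).

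Of the 10 members, 8 passed the filter on low counts, and 1 of these was called higher and 0 lower in LamDm0 guts at an adjusted p under 0.05. The background was 8.03% of all 8794 genes tested, with 419 (4.76%) higher and 287 (3.26%) lower. With no scaling beyond the library total these counts were 548 and 134. At an unadjusted p under 0.05, 3 of the 8 members differed, CG18417, CG32379 and CG17633, beside 23.9% of all genes tested. DESeq2 called the same 3, 1 higher and 2 lower, where it called 14.8% of all genes. In the authors' deposited table, these 3 of the 9 members listed had an adjusted p under 0.05, beside 12.2% of all genes with an adjusted p there. For 4 of the 8 members, these 3 and CG8562, TMM-scaled control and LamDm0 values did not overlap, against 17.3% of all genes tested. Of these 4, 1 was higher in LamDm0 guts (9.95% of all genes) and 3 were lower (7.38%). By library total alone, values of CG17633 and CG8562 overlapped between the groups, as given below. Calls over all genes were 9.73% without LamDm0 replicates 1 and 2, with 0 members higher and 3 lower, and 4.85% without LamDm0 replicates 3 and 4, with 1 higher and 0 lower. With the replicate number as a block they were 3.78%, and 0 members were called. Of the 8 log2 fold changes, 7 were negative, with a median of -0.67. Over all genes tested, 4282 of 8794 were negative, with a median of 0.01. Without LamDm0 replicates 3 and 4, CG12374, CG8562, CG18585 and CG8560 stood at -0.21, -0.26, -0.18 and 0.07. In the same fit CG17633, CG32379 and CG3097 stood at -0.59, -0.76 and -0.67, and CG18417 at 1.87.

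**Figure D1:**
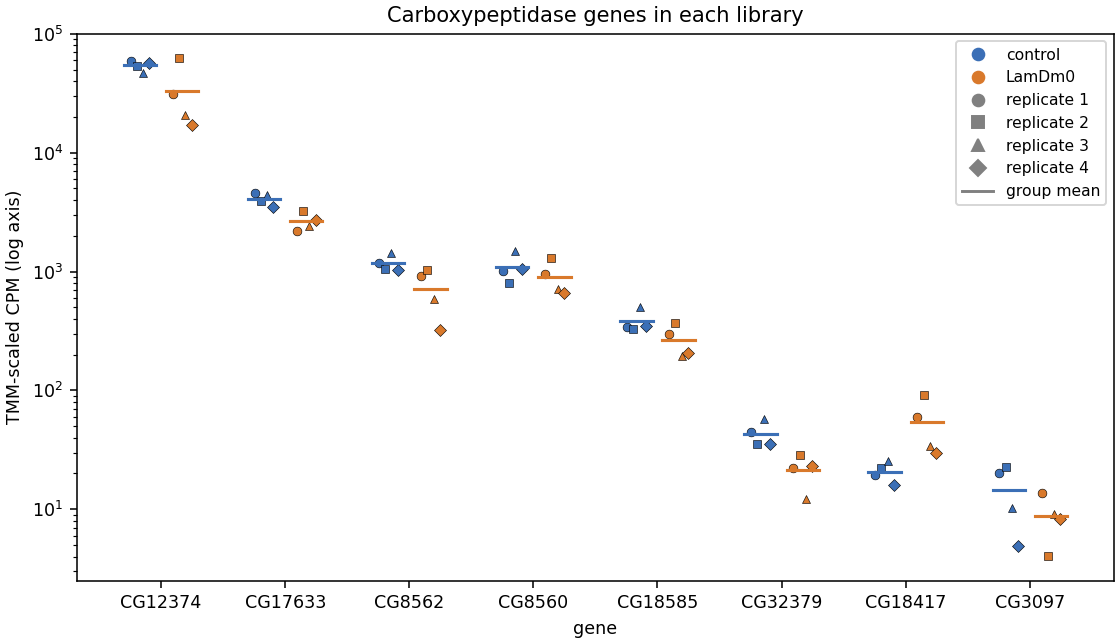
TMM-scaled CPM (log axis) of the 8 members that passed the filter on low counts, ordered by their level in control guts. Blue marks are control and orange marks LamDm0 libraries, marker shapes give the replicate number and lines the group means; CG18417 was higher in all 4 LamDm0 libraries, while LamDm0 replicate 2 lay above the controls for CG12374.

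CG18417 (FBgn0035780, 3L, 7400070 to 7401671) was the member called, and it was higher in LamDm0 guts. It had 19.5, 22.3, 25.3 and 15.9 CPM in control replicates 1 to 4 and 59.7, 91.3, 33.8 and 29.9 CPM in LamDm0 replicates 1 to 4. Every LamDm0 library was above every control, with replicates 1 and 2 well above replicates 3 and 4. The gene rose 2.58-fold, from 20.8 ± 3.99 to 53.7 ± 28.4 CPM, with a log2 fold change of 1.37 ± 0.35 (SE; adjusted p = 0.0465, edgeR). The call was close to the threshold and ended when control replicate 1, 2, 3 or 4 or LamDm0 replicate 1 or 2 was left out, with an adjusted p of up to 0.118. It also ended without LamDm0 replicates 1 and 2 together, where the log2 fold change was 0.62 (adjusted p = 0.0854). With the replicate number as a block it was 1.24 (adjusted p = 0.0847). Without LamDm0 replicates 3 and 4 it was 1.87 (adjusted p = 0.00909). The authors' deposited table gives a log2 fold change of 1.14 and an adjusted p of 0.00252.

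CG32379 (FBgn0052379, 3L, 7396355 to 7398208), which lies in the same row to the left of CG8562, had lower values in LamDm0 guts and stood at the threshold. It had 44.6, 35.2, 58.0 and 35.5 CPM in control replicates 1 to 4 and 22.0, 28.9, 12.3 and 22.9 CPM in LamDm0 replicates 1 to 4. The groups did not overlap. The means were 43.3 ± 10.7 and 21.5 ± 6.87 CPM, and the log2 fold change of -1.01 ± 0.26 did not pass (adjusted p = 0.0509). It was called under 6 of 19 alternatives, DESeq2 among them (adjusted p = 0.00382). Over all 19 its log2 fold change ran from -1.29 to -0.76 and its adjusted p up to 0.167.

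CG17633, the second most abundant member per length, also had lower TMM-scaled values in every LamDm0 library. It had 4613, 3917, 4425 and 3493 CPM in control replicates 1 to 4 and 2194, 3230, 2407 and 2733 CPM in LamDm0 replicates 1 to 4. After scaling the groups did not overlap, and control replicate 4 and LamDm0 replicate 2 were the closest libraries across them. By library total alone the groups did overlap, with 73037 of 23176905 counts in control replicate 4 and 120093 of 36022790 in LamDm0 replicate 4. With no scaling the log2 fold change was -0.46 (adjusted p = 0.18, edgeR). The means were 4112 ± 507 and 2641 ± 451 CPM, and the log2 fold change of -0.64 ± 0.19 did not pass (adjusted p = 0.0726). Its log2 fold change stayed between -0.75 and -0.46 over 19 alternatives, 1 of which, DESeq2, called it (adjusted p = 0.00079).

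The 3 remaining members above 100 CPM had smaller or more variable differences. CG8562 (FBgn0035779, 3L, 7398285 to 7399912) had 1183, 1047, 1425 and 1034 CPM in control and 916, 1031, 582 and 323 CPM in LamDm0 replicates 1 to 4. After TMM scaling its groups were separated by a narrow margin, between control replicate 4 and LamDm0 replicate 2. By library total alone they overlapped, with 21621 of 23176905 counts in control replicate 4 and 21647 of 22737593 in LamDm0 replicate 2. The log2 fold change was -0.72 ± 0.33 (adjusted p = 0.229, and 0.0354 without LamDm0 replicates 1 and 2). CG8560 (FBgn0035781, 3L, 7402332 to 7404181) had 1002, 805, 1490 and 1043 CPM in control and 946, 1313, 715 and 659 CPM in LamDm0 replicates 1 to 4. Those groups overlapped, and the log2 fold change was -0.26 ± 0.27 (adjusted p = 0.607). CG18585 had 342, 329, 504 and 346 CPM in control and 300.2, 369, 193 and 208 CPM in LamDm0 replicates 1 to 4. These values overlapped as well, at a log2 fold change of -0.51 ± 0.24 (adjusted p = 0.241; 0.045 without LamDm0 replicates 1 and 2).

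CG3097 (FBgn0029804, X, 5765855 to 5770780) was low and uneven within control guts. It had 20.2, 22.5, 10.2 and 4.88 CPM in control and 13.8, 4.05, 9.13 and 8.21 CPM in LamDm0 replicates 1 to 4. Control replicates 1 and 2 were above all other libraries, and the log2 fold change was -0.71 ± 0.49 (adjusted p = 0.424). CG8563 (FBgn0035777, 3L, 7390742 to 7396013) had 5, 9, 6 and 7 counts in control and 19, 0, 7 and 5 counts in LamDm0 replicates 1 to 4, which is 0 to 0.755 CPM, and was not tested. CG3108 (FBgn0029807, X, 5777195 to 5781620) was at 0 counts in each of the 8 libraries. That limits its level to 3 counts, or 0.0833 to 0.152 CPM by library total.

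**Figure D2:**
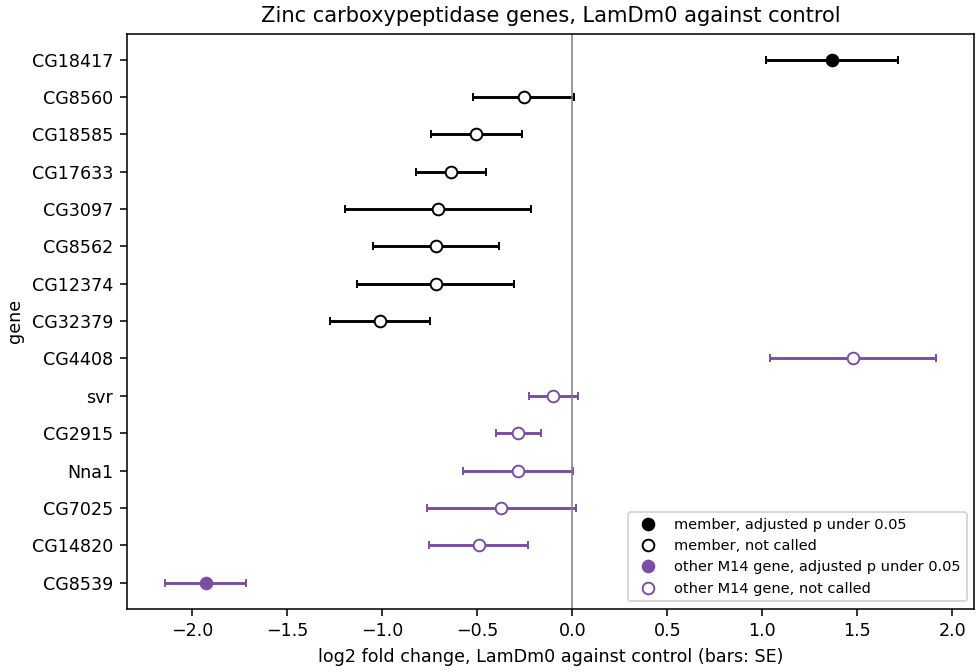
Log2 fold change of LamDm0 against control guts with its SE (horizontal bars) for 8 members (black) and 7 other M14 carboxypeptidase genes (purple) that passed the filter; filled marks have an adjusted p under 0.05. CG18417 at 1.37 and CG8539 at -1.93 are the filled marks, and the other genes carry no call.

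Levels of different genes were compared per kilobase of exon. In control guts the order of the level, in TMM-scaled CPM per kilobase, was CG12374 (37020 ± 3785), CG17633 (3046 ± 375), CG8562 (790 ± 122), CG8560 (693 ± 185), CG18585 (267 ± 58.1), CG32379 (35.01 ± 8.63), CG18417 (14.03 ± 2.70), CG3097 (7.27 ± 4.19) and CG8563 (0.157 ± 0.0437; SD, n = 4 each). Ranges of neighbours in this order overlapped for CG8562 and CG8560 and for CG18417 and CG3097, and were separate for the other pairs. In LamDm0 guts CG18417, at 36.3 ± 19.2, stood above CG32379, at 17.4 ± 5.55, with overlapping ranges of 20.2 to 61.7 and 9.92 to 23.3. The members summed to 61025 ± 5066 CPM in control libraries and to 37523 ± 21433 CPM in LamDm0 libraries, and CG12374 made up 85.4% to 90.5% and 81.2% to 91.1% of their counts. Without CG12374 the sums were 6828 ± 921 and 4614 ± 995 CPM, from 5972 to 7937 and from 3954 to 6066 CPM, so these ranges met only at control replicate 4 and LamDm0 replicate 2.

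Within the row on 3L, neighbouring genes differed in level and in the sign of their fold change. CG18417 and its left neighbour CG8562 are 157 bases apart on the same strand. In control libraries CG18417 had 0.0154 to 0.0213 times the CPM of CG8562, and in LamDm0 libraries 0.0581 to 0.0925 times. Against CG32379 the ratio was 0.436 to 0.633 in control and 1.30 to 3.17 in LamDm0 libraries. Against CG8560 it was 0.0153 to 0.0277 and 0.0453 to 0.0696. None of these 3 ratios overlapped between the groups. For CG32379 and CG8562 that was fixed beforehand, since CG18417 was higher and both of these were lower in every LamDm0 library. All 3 ratios have CG18417 as the numerator. Ratios within a library do not depend on the scaling between libraries, but they were chosen after the values were seen and were not tested. To the left of the row, CG8564 was at 0 counts in every control library and at 0.0541 ± 0.0714 CPM in the LamDm0 group. The next gene, smid, stood at 48.3 ± 5.09 and 44.7 ± 1.12 CPM (log2 fold change -0.11 ± 0.10, adjusted p = 0.522).

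**Figure D3:**
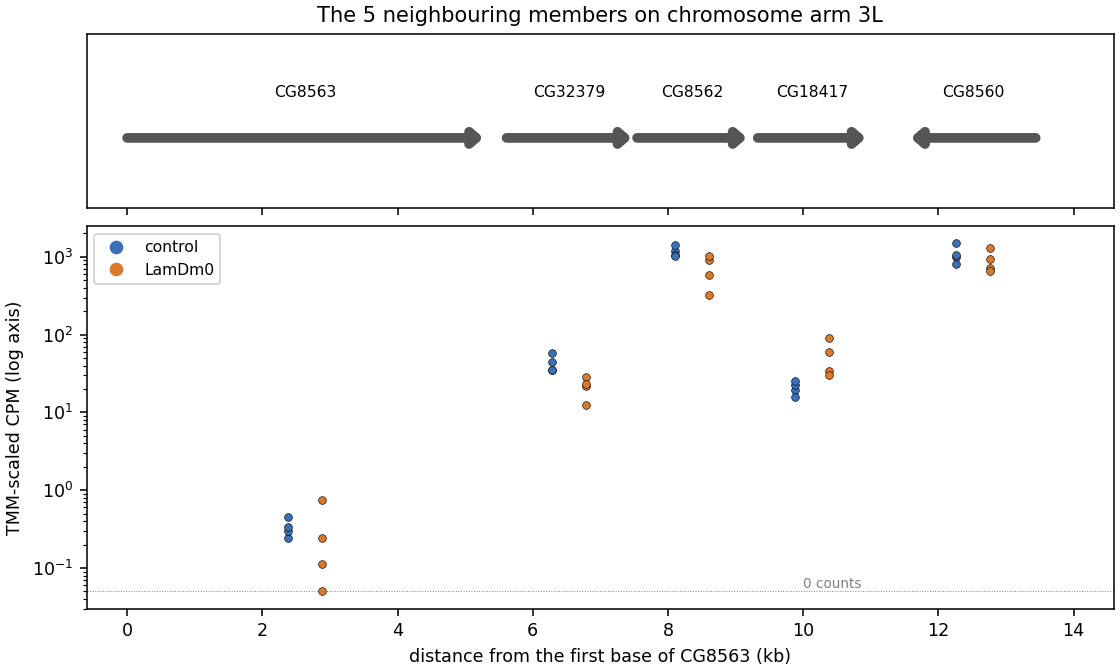
Above, the 5 neighbouring members on 3L to scale, with arrows in the direction of transcription and the distance in kb from the lowest coordinate of CG8563. Below, TMM-scaled CPM (log axis) of each library over its gene, control in blue and LamDm0 in orange, with the library of 0 counts drawn on the dotted line; CG18417 is the gene whose orange points lie above the blue ones.

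**Figure D4:**
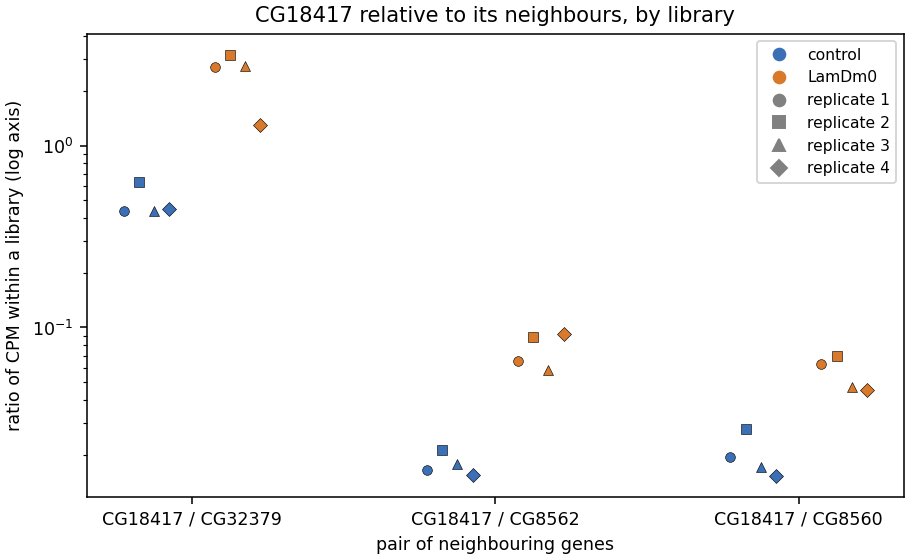
Ratio of the CPM of CG18417 to that of each of 3 neighbours in the same library (log axis), control in blue and LamDm0 in orange, with marker shapes for replicates. For each neighbour the 4 LamDm0 libraries lie above the 4 control libraries, from 1.30 to 3.17 against 0.436 to 0.633 for CG32379. For CG32379 and CG8562 this was fixed by the values of the single genes, which do not overlap between the groups.

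LamDm0 replicate 2 was often the highest library of its group. It was the highest of the 4 LamDm0 libraries for 7 of the 8 members tested, all except CG3097, whereas it was the highest for 28.9% of all genes tested. The same library was the highest for 8 of 10 trypsin genes and for 15 of 17 Jonah serine protease genes. Of 7 other M14 carboxypeptidase genes tested, it was the highest for 3 and the lowest for 2. LamDm0 replicate 4 was the lowest for 4 of the 8 members and for 12 of the 17 Jonah genes, against 23.4% of all genes tested. It was the lowest for 5 of the 10 trypsin genes and for 1 of the 7 other M14 genes. The mitochondrial share of LamDm0 replicate 4 was 10.25% and that of replicate 2 was 10.63%. Their TMM factors were 1.22 for replicate 4 and 0.924 for replicate 2. The part of any library property in this order was not tested.

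The pattern of CG12374 over the 8 libraries was most like that of 5 genes, by Pearson's r of log2 CPM over the 5526 genes whose mean reached 10 CPM. These were Hex-C, a hexokinase gene (r = 0.989, Spearman's rho = 0.976), the serine protease gene Jon99Ciii (0.975 and 0.786), CG6295 (0.969 and 0.881), CG17192 (0.967 and 0.786) and Jon99Cii (0.965 and 0.786). Jon99Ciii and Jon99Cii are close copies that may share reads. Hex-C had 80.5, 71.0, 65.6 and 72.1 CPM in control replicates 1 to 4 and 54.0, 74.5, 36.0 and 30.5 CPM in LamDm0 replicates 1 to 4. Its LamDm0 replicate 2 lay within the control range, whereas that of CG12374 was above every control. None of the 5 was called between the groups (adjusted p from 0.153 to 0.262). Among the members, r with CG12374 was 0.878 for CG8562, 0.82 for CG18585 and 0.713 to 0.725 for CG17633, CG32379 and CG8560. It was 0.015 for CG3097 and -0.119 for CG18417. By this measure CG8562 ranked 73 of 5526 genes and CG18417 ranked 3115. These correlations share the 8 libraries and the group difference and are descriptions with no p.

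Of 13 other M14 carboxypeptidase genes in the table, 7 were tested, and DESeq2 called 1 of them, where it called 14.8% of all genes. By edgeR 1 was lower, 0 were higher and 6 did not pass, with a median log2 fold change of -0.29. Over all genes tested, 3.26% were lower and 4.76% higher. The gene called was CG8539, with 29.5, 26.8, 41.5 and 27.7 CPM in control replicates 1 to 4 and 9.70, 6.05, 6.92 and 10.1 CPM in LamDm0 replicates 1 to 4. Every LamDm0 library was below every control, by a wide margin. It fell 3.81-fold, from 31.4 ± 6.84 to 8.20 ± 2.03 CPM (log2 fold change -1.93 ± 0.21, adjusted p = 0.00153). At an unadjusted p under 0.05, 3 of the 7 differed, beside 23.9% of all genes tested. TMM-scaled values did not overlap between the groups for 2, CG8539 and CG4408, against 17.3% of all genes tested. CG4408 was higher in LamDm0 guts, at 0.232 ± 0.0814 and 0.664 ± 0.292 CPM, with 94 counts in all (log2 fold change 1.48 ± 0.44, adjusted p = 0.0759). Of the family genes that did not pass, CG14820 and CG7025 were the most abundant, at 353 ± 33.5 and 274 ± 71.9 CPM in control guts. svr, which encodes carboxypeptidase D, an enzyme of the secretory pathway and not of digestion, had 134 ± 4.12 and 125 ± 20.3 CPM (adjusted p = 0.684).

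Serine endopeptidases of the gut, which act before the carboxypeptidases, were examined as 2 lists. Of 10 trypsin genes tested 2 were lower, deltaTry and thetaTry, and 0 higher, with a median log2 fold change of -0.43. The trypsin gene gammaTry, with the same exon length of 810 bases as deltaTry, had 0 counts in all 8 libraries. Whether trypsin genes share reads was not tested, so the level of deltaTry alone is uncertain. Of 17 Jonah genes 4 were lower, Jon66Cii, Jon66Ci, yip7 and Jon44E, and 0 higher, with a median of -0.61. The background was 3.26% of all genes tested lower and 4.76% higher. DESeq2 called 3 trypsin genes and 8 Jonah genes, where it called 14.8% of all genes. The carboxypeptidases, at a median of -0.67, were not tested against either group. Summed CPM overlapped between the groups for both, from 27108 to 35159 in control and 19594 to 39581 in LamDm0 libraries for trypsins, and from 97666 to 130503 and 53589 to 103103 for Jonah genes. For genes of midgut regions, 0 of 7 transcription factor genes (lab, exex, cad, GATAe, Ptx1, dve and vvl) were called by edgeR or DESeq2, and 1 had an unadjusted edgeR p under 0.05. That was lab, which marks the copper cell region of the middle midgut, with 13.6 ± 1.67 and 8.90 ± 3.56 CPM (adjusted p = 0.191).

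**Figure D5:**
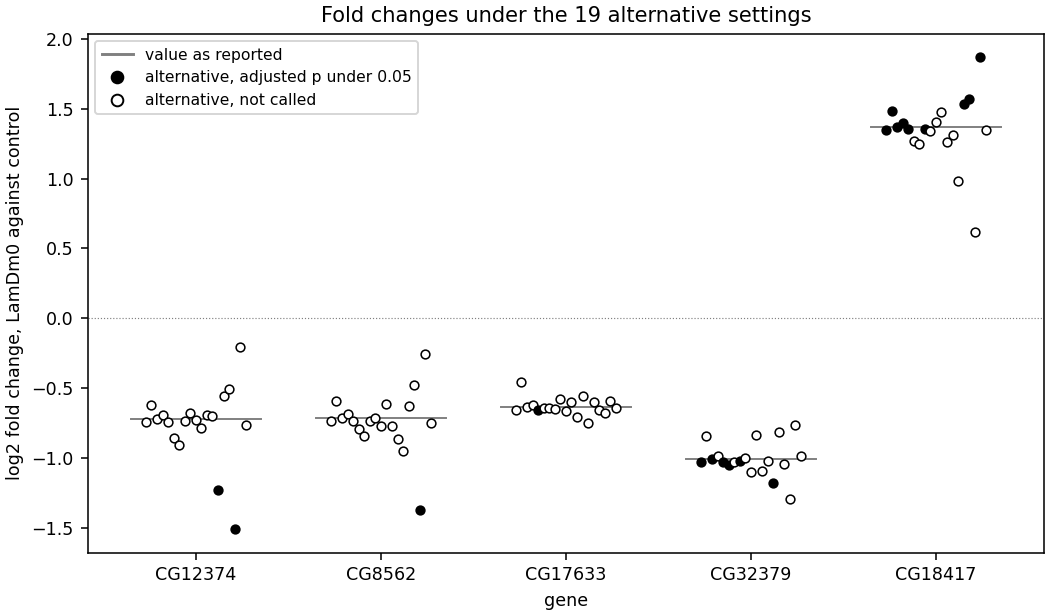
Log2 fold change of LamDm0 against control for 5 members under each of 19 alternative settings (points; filled where the adjusted p was under 0.05), with the reported value as a grey line. CG17633 stayed between -0.75 and -0.46, CG12374 ranged from -1.51 to -0.21, and CG18417 was above 0 throughout, from 0.62 to 1.87.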

How the data were processed

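Whole-gut RNA was sequenced from 4 control and 4 LamDm0 samples. Per the labels, strand-keeping libraries were made from mRNA isolated out of 100 ng total RNA, and 12 of them were mixed and read on 2 lanes as 50 nt single reads. The authors deposited whole-number counts per gene, with no normalization. The submitters' processing notes name DESeq2 1.10.1, HTSeq 0.6.0, TopHat2 2.0.13 and the build BDGP6. The authors also deposited a mean normalized signal, log2 fold changes, p-values and adjusted p-values of their own comparison, which were used only where named. The handling of reads that match several genes is not given in the sources used here.

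Counts were tested with edgeR 4.0.16 in R 4.3.3: filterByExpr, TMM scaling and a two-sided quasi-likelihood F-test of 8794 genes, with Benjamini-Hochberg adjustment and a threshold of 0.05. The SE is the log2 fold change divided by the square root of F. Where nothing says that guts were raised apart, p-values measure only the spread between these samples. Alternatives used DESeq2 1.42.0 and limma 3.58.1. CPM are TMM-scaled, and levels per kilobase divide them by the merged exon length in Ensembl's BDGP6.54 annotation; ranks and ratios per kilobase used unscaled CPM. Correlations used log2(CPM + 0.5). No row lacked an identifier. A limit of 3 counts for a count of 0 covers counting error only.

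The members and lists were chosen with earlier results of these data known. The genes named are the members, Lam and the 5 genes most like CG12374. Of each list, up to 4 called genes or the gene with the smallest p are also named. CG14820, CG7025, CG4408, svr, nub, Myo31DF, pdm2, gammaTry, CG8564, smid and Jon65Aiv were named after their values were seen.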

Additional observations from a re-analysis of the deposited data

Results flagged for a closer look

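CG18585 in control replicate 3 stood apart, with 503.7 CPM where the rest of its group had 328.7 to 345.7 CPM. The gap took up 0.903 of the group's range. Among 20 groups of values examined in this way for the members and their sum, it was the only 1 that stood out, and chance alone gives about 1 in 20. CG18417, CG32379, CG8562 and CG8560 were also highest in control replicate 3 among the controls.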

How the results depend on the processing

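Calls among the members moved with the setting. The count of members higher in LamDm0 guts, 1 as reported, was 0 with limma-voom, with the replicate block, without LamDm0 replicates 1 and 2, and with replicates 1 and 2 and replicates 3 and 4 summed, and 0 to 1 without any 1 library. The count lower, 0 as reported, was 1 with DESeq2's size factors, with no filter, with limma-voom and with mitochondrially encoded genes left out, 2 by DESeq2, 3 without LamDm0 replicates 1 and 2, and 0 to 2 without any 1 library. Over all genes, 275 were higher and 190 lower with a minimum mean of 10 CPM, 668 and 636 by DESeq2, 211 and 121 with the replicate block, 36 and 36 with libraries summed in pairs, 214 to 387 and 132 to 267 without any 1 library; 134 were lower with no scaling and 137 without LamDm0 replicates 3 and 4. No scaling shifted the median of all genes by 0.189 on the log2 scale. The sign of 7 members held in all 19 alternatives. That of CG8560 reversed without LamDm0 replicates 3 and 4, to 0.0653. The cause was not tested, except that fewer samples or genes enter some fits. The difference in the mean log2 of the summed level was -0.85, and -1.19 to -0.63 without any 1 library. The block made or ended no other call among the members. Deviations of same-numbered libraries from their group means had correlations of -0.18, -0.0601, -0.368 and -0.0275. Those of differently numbered libraries ran from -0.216 to 0.304. Deviations within groups of 4 libraries cannot show whether same-numbered samples were prepared together, so pairing remains unknown. Depth limits only CG8563 and CG3108.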

Other observations

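Aminopeptidase genes and genes of peptide and amino acid transporters were counted as 2 lists, beside a background of 8.03% of all genes tested. Of 11 aminopeptidase genes of the M1 family tested, 1 was lower and 0 higher, with a median log2 fold change of -0.13. The gene called was the low SP1029, from 3.40 ± 1.03 to 1.35 ± 0.153 CPM (adjusted p = 0.0142). Of 11 peptide and amino acid transporter genes, 1 was lower and 0 higher, with a median of -0.15. That gene was yin, a peptide transporter, from 7.16 ± 1.26 to 4.41 ± 0.701 CPM (adjusted p = 0.0425).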
